A study of Mus musculus with 2 samples.

Results

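The olfactory receptor array around the beta-globin genes holds 129 of the 21938 protein-coding genes of the annotation. Its members are the protein-coding genes with an Olfr symbol that start between 102.0 and 105.5 Mb of chromosome 7 (GENCODE vM21, build mm10), a rule that uses position and name and no binding value. The array runs from Olfr543 to Olfr692, at chr7:102476579-105369355, over 2.89 Mb. It holds 65 receptors on the + strand and 64 on the − strand. The beta-globin genes lie inside it at chr7:103812524-103853216, with 77 receptors on the low-coordinate side and 52 on the high-coordinate side. The next receptor gene outside is Olfr521, 2.71 Mb below the low end, and Olfr693 lies 1.31 Mb above the high end. A further 1006 protein-coding Olfr genes are elsewhere in the genome.

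CTCF was mapped by chromatin immunoprecipitation with sequencing in 1 group, livers of B6NCrl mouse embryos at 14.5 days. The livers of several dissections and both sexes were pulverised and pooled, and no treatment or allele is given. Both libraries came from 1 biosample, so the SD between them (n = 2) covers library making and sequencing, not animals, and no contrast between groups exists. At this age the liver makes red blood cells, and cell types of the pooled tissue cannot be told apart here. Read depth is unknown. The optimal list thresholded by the irreproducible discovery rate (IDR), a measure of how well peaks recur between replicates, held 50909 peaks, and the pooled list and the list of each replicate held 300000 each.

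Receptors of this array belong to class I, the family that resembles receptors of fish, and detect odorants in neurons of the nose, where each neuron uses a single receptor gene. Several of them are also known in other tissues. CTCF is a zinc finger protein that binds a directional motif and holds the ends of many chromatin loops. The beta-globin genes and their locus control region are known to be flanked by CTCF sites in red cells.

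The sequences below carry the CTCF motif at the sites on which the results turn. Each shows 30 bases of build mm10 read 5′ to 3′ along the motif strand, with the 14 bases of the core motif match in capitals. The motif was searched on both strands, with at most 2 mismatches, within 50 bp of a summit. First are the motif at the strongest receptor start (Olfr557), the 3 strongest summits of the array (Olfr633, Olfr649 and Olfr65, named by the nearest start), and both summits with an exact match (Olfr554 and Olfr67).
Olfr557, chr7:102695568-102695597, + strand, 1 mismatch: ccacatggCCACAAGAGGGCAGcatccaaa
Olfr633, chr7:103942933-103942962, − strand, 1 mismatch: agatgtgaCCAGGAGAGGGCAGcagagggt
Olfr649, chr7:104199982-104200011, + strand, 1 mismatch: ccaactggTCAGTAGGTGGCGCtaatggag
Olfr65, chr7:103913170-103913199, − strand, 1 mismatch: tagtgtagCCACCAGGGGGAAGgggtaacc
Olfr554, chr7:102636900-102636929, − strand, 0 mismatches: aaccctttCCAGTAGAGGGCGCcaaacctg
Olfr67, chr7:103793086-103793115, + strand, 0 mismatches: gttgcataCCAGTAGGGGGCAGaagtgttc

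The next 4 are the other matches with 1 mismatch within 1 kb of a receptor start, and none of them held an optimal summit. They are shown because the letters are as near to the core motif as those of the strongest sites.
Olfr596, chr7:103309753-103309782, − strand: aggaatgcCCAGCAGATGGAAGagagaggg
Olfr603, chr7:103383941-103383970, + strand: aggaatgcCCAGCAGATGGAAGagagaggg
Olfr598, chr7:103324457-103324486, + strand: tcttttgtCCAGCAGATGACACagtttgca
Olfr691, chr7:105338547-105338576, − strand: tgttggagCTAGTAGAGGGCAGggagacag

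Few receptor starts held a CTCF summit. An optimal summit lay within 1 kb of an annotated start of 5 of the 129 receptors, or 3.88% (Wilson 95% interval 1.67 to 8.75%, counting error only), and these were Olfr543, Olfr556, Olfr557, Olfr64 and Olfr658. All protein-coding genes together gave 35.2%, 7727 of 21938. Among the strongest 50909 peaks of each replicate, 5 receptors had one in replicate 1 and 6 in replicate 2, a share of 4.26% ± 0.548 (SD, n = 2). The low-coordinate side of beta-globin had 3 of 77 and the high-coordinate side 2 of 52.

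Other chemosensory receptors had low shares too. Of the 1006 Olfr genes elsewhere, 6 held an optimal summit at a start, 0.596% (0.274 to 1.30%), which lies below the interval of the array. None of 331 vomeronasal receptors, which detect pheromones, held one (0 to 1.15%), and none of 15 trace amine-associated receptors did (0 to 20.4%). Among the 27 other protein-coding genes inside the array, 3 held one, all of them Trim genes, which encode RING-finger proteins that include restriction factors against viruses.

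**Figure D1:**
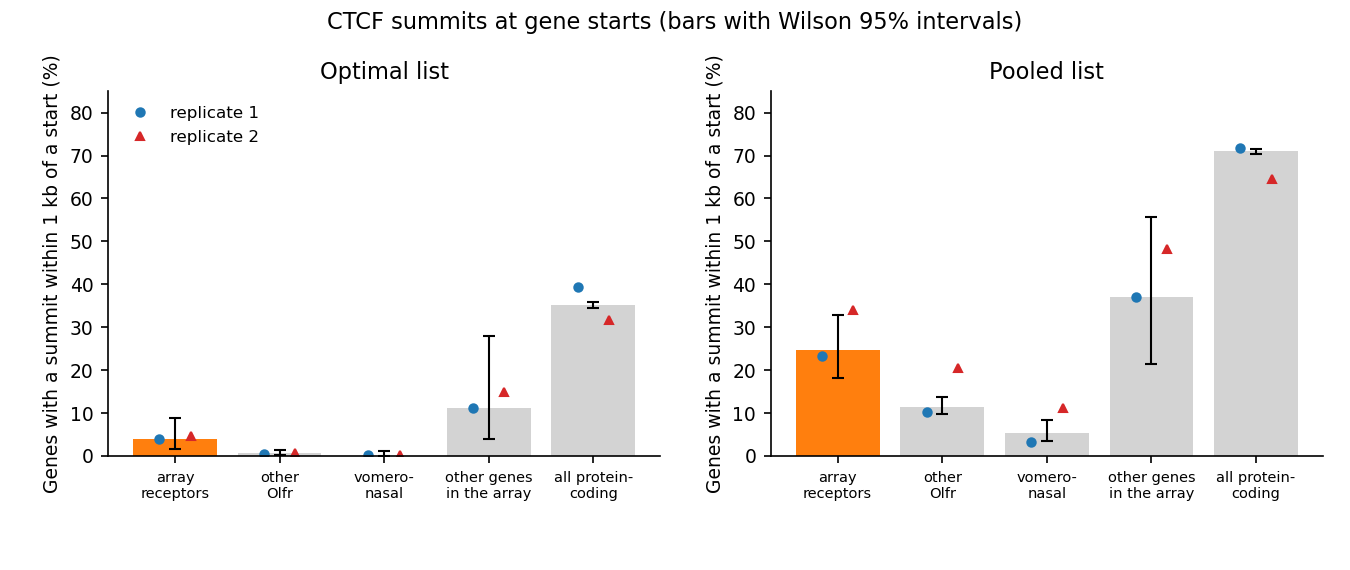
Share of genes with a CTCF summit within 1 kb of a start (y axis, percent) in the optimal list (left) and the pooled list (right), by gene group. Bars carry Wilson 95% intervals, and points are each replicate's strongest 50909 peaks (left) or full list (right). The array receptors stand at 3.88% and 24.8%, against 35.2% and 71% of all protein-coding genes.

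Base composition at the starts moved with these shares. Composition was measured within 500 bp of 1 start per gene, the 5′ end of the gene record. There the receptors had a median GC content of 38.2%, against 54.8% over all protein-coding genes. Their median ratio of observed to expected CpG was 0.103 against 0.553. Summits were counted at any annotated start, and the Olfr543 summit was at another start than the one measured. Among receptors with GC between their own quartiles, 35.9 and 41.2%, 1 of 68 held a start summit (1.47%, 0.260 to 7.87%). Of the 1159 protein-coding genes without the Olfr prefix in the same GC class, 71 did (6.13%, 4.89 to 7.66%), and of the 345 other Olfr genes in it, 1 did (0.290%, 0.0512 to 1.62%). Above that class it was 4 of 32 receptors (12.5%, 4.97 to 28.1%) against 39.6% of 19318 genes without the prefix and 4 of 177 other Olfr genes (2.26%, 0.882 to 5.67%). Below it, 0 of 29 receptors, 2 of 326 genes without the prefix and 1 of 484 other Olfr genes held one. The array's share was above that of the other Olfr genes in the middle and upper classes, as over all classes together. Within each class the counts were small and the intervals of these 2 groups overlapped, which cannot show whether their shares differ at like GC. The part that base composition plays in the share was not tested.

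The peaks at these 5 starts differed widely in strength. Signal is the peak caller's own value as deposited, compared within a list only, and relative signal is a replicate's own peak divided by the median of that replicate's strongest 50909 peaks. Olfr557, at chr7:102695910-102700707 on the + strand, had a peak of signal 230 whose summit lay 329 bp upstream of the start. Its relative signal was 3.37 in replicate 1 and 3.57 in replicate 2, 3.47 ± 0.140 (SD, n = 2). Both replicates were high, and this was the only start peak above the list's median signal of 67.9. The capitals of the Olfr557 site printed above lie within that peak, on the strand of the gene.

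Olfr658, at chr7:104642877-104647305 on the − strand, had its summit 26 bp upstream of the start, with a signal of 61.4. Its relative signal was 1.28 in replicate 1 and 0.562 in replicate 2, so the replicates stood on different sides of their medians. No match to the core motif lay within 50 bp of that summit. At this start GC content was 52.4% and observed to expected CpG 0.410, and 74.7% of the 32-base words within 500 bp occurred once in the genome.

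The other 3 start summits lay downstream, inside the genes. In Olfr543 the summit was in coding sequence 504 bp downstream of an annotated start, with a signal of 48.4 and relative signals of 1.06 and 0.458 in replicates 1 and 2. In Olfr64 it was in coding sequence 777 bp downstream, with a signal of 47.3 and relative signals of 0.754 and 0.616. In Olfr556 it was in an intron 649 bp downstream, with a signal of 37.7 and relative signals of 0.258 and 0.810. The Olfr64 replicates lay close together, while in Olfr556 replicate 2 was the higher by far and the peak was missing from the conservative list. Of the 3, Olfr556 had a motif match, with 2 mismatches. With 1 start per gene, at the 5′ end of the gene record, 4 of the 5 receptors kept a summit.

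Weaker peaks reached more of the receptors. In the pooled list, 32 of the 129 receptors had a peak within 1 kb of a start, 24.8% (18.2 to 32.9%), against 71% of all protein-coding genes, 11.5% of the other Olfr genes and 5.44% of vomeronasal receptors. The full replicate lists gave 30 and 44 receptors, a share of 28.7% ± 7.67 (SD, n = 2). Of the 32, 14 had a peak in both full replicate lists. Over all 129 receptors it was 16, against 40 of 1006 other Olfr genes and 12929 of 21938 protein-coding genes. The strongest pooled peak at a start had a median signal of 7.55 over these 32 receptors, and the median of the whole pooled list was 7.25. Ranked by signal, 22 of the 32 stood beyond the strongest 100000 of that list. No peak within 1 kb of a start was listed in any of the 3 full lists for 66 receptors, a count that was not made for other genes.

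Below the 5 optimal starts the pooled signals fell off quickly. Olfr575 followed with a pooled signal of 20.5 at rank 49073, 145 bp from its start, with relative signals of 0.215 and 0.390 in the replicates. Olfr545 had 16.4 and Olfr571 had 11.9. Olfr692, the outermost receptor at the high end, had 9.63 and no peak in replicate 2, and Olfr548-ps1 had 9.50 and no peak in replicate 1. None of these 5 was in the optimal list at a start.

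Most receptors lay far from an optimal summit of any strength. The median distance from a receptor's starts to the nearest optimal summit was 50.5 kb, with a range from 0.026 kb for Olfr658 to 287 kb for Olfr669. It was 160 kb for Olfr genes elsewhere and 3.70 kb over all protein-coding genes. An optimal summit lay within 10 kb of 23 receptors (17.8%), and 40 receptors (31.0%) were more than 100 kb from one. These counts were not made for other genes, so the shares have no background here and only the medians are compared. On the low-coordinate side the median was 41.0 kb and on the high-coordinate side 66.2 kb.

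**Figure D2:**
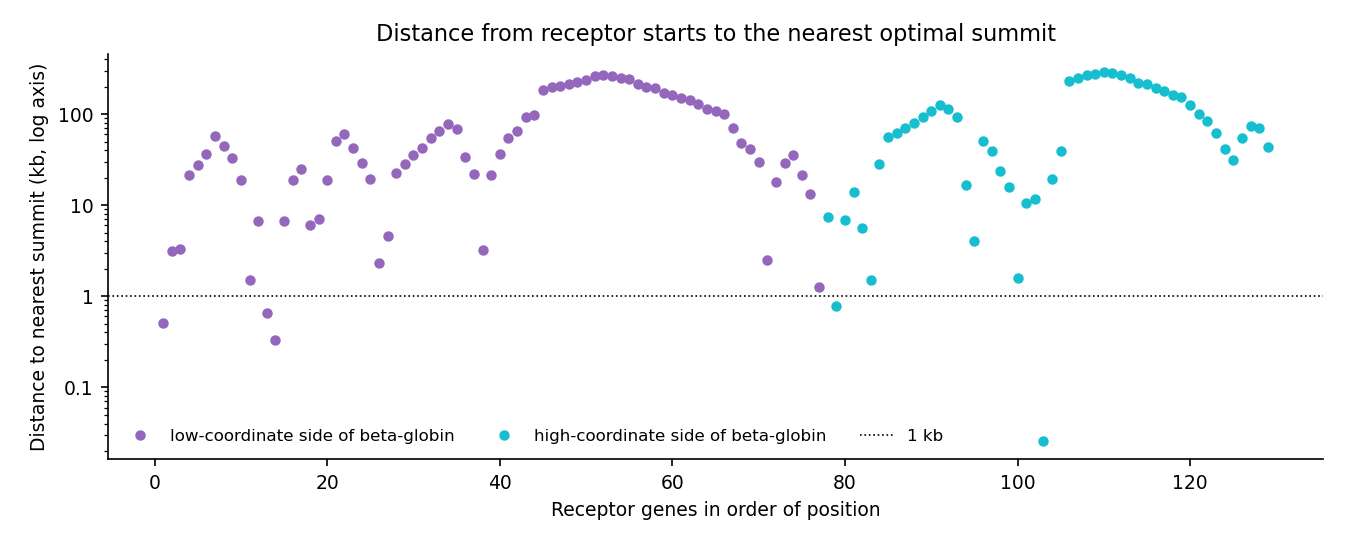
Distance in kb (log axis) from each receptor's starts to the nearest optimal summit, with the 129 receptors in order of position and coloured by their side of the beta-globin genes. The 5 points under the dotted line at 1 kb are the receptors with a start summit, and the 2 highest arches are the receptors inside the gaps of 593 and 601 kb.

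Summits were sparser along the array as a whole than in the 500 kb on each side of it. Inside, 32 optimal summits gave 11.1 per Mb, and the strongest peaks of the replicates gave 10.03 and 12.4 per Mb (11.2 ± 1.71, SD, n = 2). Chromosome 7 as a whole had 24.4 per Mb and the genome 19.2. The 500 kb below the array held 23 summits, 46.0 per Mb, and the 500 kb above it held 18, 36.0 per Mb. In the replicates the flanks had 51.0 ± 1.41 and 36.0 ± 0 per Mb (SD, n = 2). Each flank differed from the array as a whole by more than the spread between replicates. These values do not place a drop at the ends themselves. The array with 100 kb added on each side held 36 summits, 11.6 per Mb. Both sides of beta-globin had 11.2 per Mb. Pooled peaks gave 50.8 per Mb in the array against 113 in the genome.

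Part of the array is short sequence that also occurs elsewhere in the genome. Of its 32-base words, 72.3% occurred once in the genome, against 92.8% in the low flank and 85.8% in the high flank, and repeat masking covered 43.0% of it against 36.4% of the genome. Within 500 bp of receptor starts the median was 99.1%, and no receptor was below 50.1%. The part that mapping plays in the density was not tested.

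**Figure D3:**
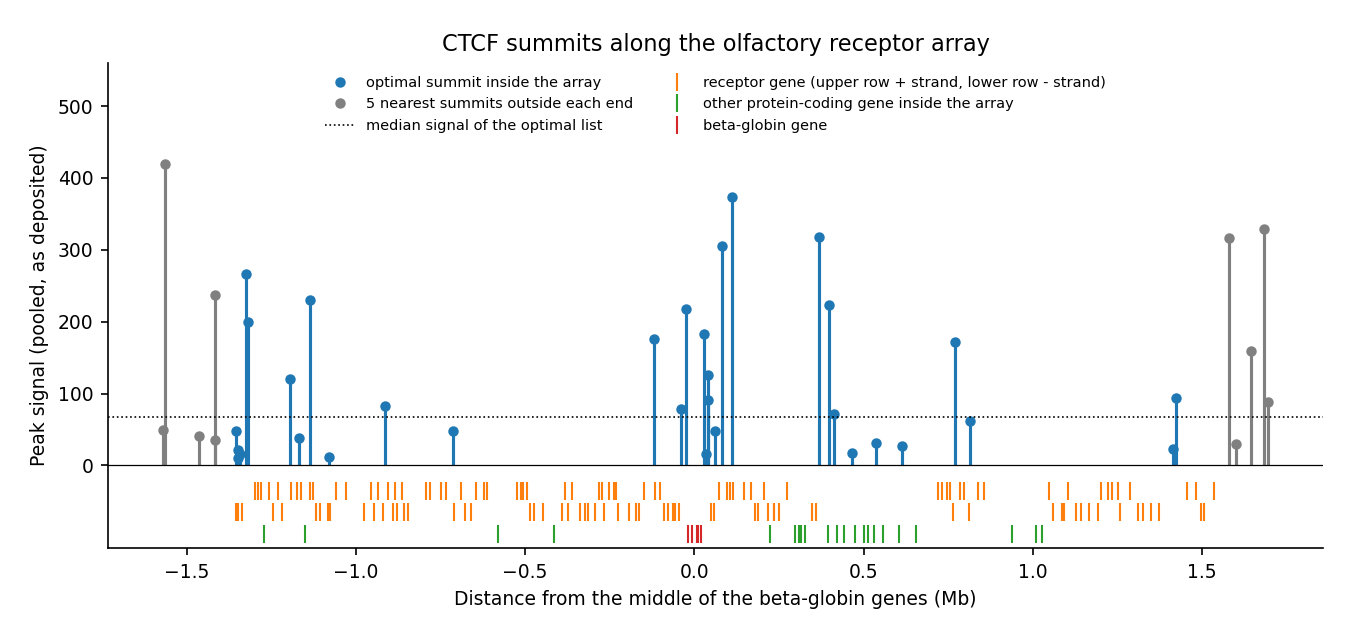
Signal of each optimal summit (y axis) against distance from the middle of the beta-globin genes in Mb, with receptor genes as ticks by strand, other genes below them, and the 5 nearest summits outside each end in grey. The dotted line is the list's median signal of 67.9. Several summits each stand at the low end, around beta-globin and at the Trim genes, and 2 wide stretches of receptors hold none.

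Most of the array's summits stood between receptors. Of the 32, 27 were not at a receptor start, 18 were intergenic and 7 lay inside a receptor's gene body. Receptor bodies covered 0.857 Mb with 8.17 summits per Mb. The gene record of Olfr643 runs over several other receptors, so part of its length is counted again in the stretches between receptors. It held no optimal summit, so no summit is counted in both, but the densities are approximate. The 114 stretches between neighbouring receptors with no other protein-coding gene covered 1.24 Mb with 12 summits, 9.71 per Mb, and only 10 of these stretches held one. The 9 stretches with other protein-coding genes covered 0.886 Mb with 13 summits, 14.7 per Mb. Of these 13, 6 lay between Olfr67 and Olfr66, around beta-globin, and 1 was the Olfr557 start site. The other 6 lay between Olfr649 and Olfr651, a stretch that holds Trim genes. Of these 6, the summit 4040 bp from Olfr649 stood before the first Trim gene of that stretch.

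By their median the summits that were present were not weak, though 14 of the 32 lay below the list's median signal. Their median signal was 80.2 (range 9.97 to 373), and that of all optimal summits placed on chromosomes was 68.0. The strongest, at chr7:103942817-103943077, had a signal of 373 and lay 1496 bp from a start of Olfr633. Its relative signal was 5.50 in replicate 1 and 5.63 in replicate 2, 5.57 ± 0.0887 (SD, n = 2). The next lay 4040 bp from Olfr649, with a signal of 318 and relative signals of 5.77 and 3.91, and the third lay 6849 bp from Olfr65, with a signal of 306 and relative signals of 4.11 and 5.17. A site 7462 bp from Olfr545 reached 266, with relative signals of 4.08 and 3.75. All 4 were intergenic and high in both replicates, and their motifs had 1 mismatch except the Olfr545 site, which had 2.

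Besides Olfr633, 3 receptors had a summit of signal above 100 that lay within 3 kb of a start but outside the 1 kb window. The site 2477 bp from Olfr243 had a signal of 176 and relative signals of 2.53 and 2.66. That 1597 bp from Olfr655 had 172, with 2.08 and 3.09, and that 1520 bp from Olfr554 had 120, with 1.26 and 2.43. Around the site at Olfr243, 80% of bases were repeat-masked, the only summit of the array with over 50% (3.13%, against 18.7% of all optimal summits).

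The low end of the array held a run of 6 summits within 36.7 kb of its outermost base. They were the Olfr543 start site, a pair in the coding exon of Olfr544, 1 beside Olfr545, and the sites of signal 266 and 199 beyond Olfr545. Olfr544 is known to respond to azelaic acid. Its pair had signals of 21.2 and 9.97, and the weaker had no peak within 100 bp in the full list of either replicate. Only 30% and 48% of the 32-base words around those summits occurred once in the genome, the lowest shares among the array's summits, and the part of mapping in these peaks was not tested.

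Around the beta-globin genes, which encode a chain of haemoglobin, no optimal summit lay within their 40.7 kb, where the pooled list had 7 peaks. The nearest on the Olfr67 side stood 6916 bp from Hbb-bt with a signal of 218 and relative signals of 2.12 and 4.22, and the nearest on the Olfr66 side stood 7947 bp from Hbb-y with 184, and 3.59 and 1.97. The higher replicate was not the same at the 2 sites. Between the second of these and Olfr66 came sites of 16.3, 125 and 90.5, and 1260 bp from Olfr67 a site of 78.0 with an exact motif. None of Olfr66, Olfr67, Olfr68 and Olfr69, the receptors next to the globin genes, had a pooled peak at a start, while Olfr64 did.

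The Trim stretch was the other place with several sites. An intron of Trim6 held a site of signal 223, with relative signals of 3.03 and 3.61. The start sites of Trim34a, Trim12a and Trim30b had signals of 71.4, 16.9 and 30.7, and an intron of Trim30a had 27.5. The 30 bases printed for Trim34a and Trim12a below are the same, and 84.3% of the 32-base words around each summit occurred once in the genome. The Trim30b and Trim30a matches share the same core bases, and 71.3% and 94.3% of the words around those summits occurred once. The Trim30b site had no peak in replicate 1, and the Trim12a and Trim30a sites were missing from the conservative list. The values of all these start and Trim30a sites are uncertain.
Trim34a, chr7:104244375-104244404, − strand, 2 mismatches: ctaggccaCCAATAGATGGCAAtgcaggga
Trim12a, chr7:104300105-104300134, − strand, 2 mismatches: ctaggccaCCAATAGATGGCAAtgcaggga

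A pair of gaps covered 1.19 of the array's 2.89 Mb and held 54 of the 129 receptor starts (41.9%), close to their share of its length. The first ran 601 kb from the Olfr658 summit and held 21 receptors, Olfr659 to Olfr686. It was shorter in the conservative list and with either replicate left out, where the longest gap of the array was 593 kb. The second ran 593 kb from the Olfr586 summit to the Olfr243 summit and held the starts of 33 receptors, that of Olfr586 itself and those of the 32 from Olfr588-ps1 to Olfr625-ps1. The median distance between neighbouring optimal summits was 14.8 kb in the genome, where 529 and 548 of 50868 intervals were longer than these. The next gaps of the array were 257, 200 and 168 kb.

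The gap from Olfr588-ps1 to Olfr625-ps1 was the emptier. It held 11 pooled peaks, the strongest with a signal of 7.74 at rank 131874 and at the start of Olfr607, and none of the strongest 50909 peaks of either replicate. The gap from Olfr659 to Olfr686 held 15 pooled peaks with a best signal of 24.3 at rank 44728, and 1 and 2 of the strongest peaks of replicates 1 and 2. Core motif matches with at most 1 mismatch were present in both, 14 and 13. Unique 32-base words made up 67.6 and 69.9% of the gaps, and repeats 46.5 and 44.1%.

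The 2 ends of the array differed in where the first strong site outside lay. Below, the nearest optimal summit stood 58.9 kb from the low end in an intron of Stim1, the calcium sensor of the endoplasmic reticulum, with a signal of 238 and relative signals of 3.18 and 3.85. It had no motif match. The 4 beyond it had signals of 35.6, 41.0, 419 and 49.2, and that of 419 was at the Stim1 promoter. Above, the nearest stood 42.7 kb from the high end, nearest to Cnga4, a channel subunit of olfactory neurons. It had a signal of 316, relative signals of 4.95 and 4.31, and an exact motif on the + strand. The 4 beyond it had 30.0 in Cckbr, 159 and 328 nearest to Cavin3, and 88.0 nearest to Smpd1. Inside the array the last summit before the high end lay 112 kb from it, with a signal of 93.9 nearest to Olfr688.
Cnga4, chr7:105412072-105412101, + strand, 0 mismatches: agatgcggCCAGCAGAGGGCGCcaggttct

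The motif was about as frequent at the array's summits as elsewhere. Of the 32, 22 had a core match, 68.8% (51.4 to 82.0%), against 70.8% of all optimal summits. The match was exact at 2, with 1 mismatch at 10 and with 2 at 10. Among the 18 summits above the list's median signal, 15 had a motif, and among the 14 below it, 7 did. Motifs pointed along the + strand at 10 and the − strand at 12 summits. Of the 21 neighbouring pairs of motif summits, 5 were convergent, 5 divergent and 11 pointed the same way.

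Few receptors with a match near a start also held a start summit. A match with at most 2 mismatches lay within 1 kb of a start in 45 receptors, 34.9%, against 37.0% of other Olfr genes and 69.0% of all protein-coding genes. Of the 45, 4 also held an optimal summit anywhere within 1 kb of a start (8.89%), against 1.61% in other Olfr genes and 44.8% in all protein-coding genes. At Olfr556 and Olfr557 a match lay within 50 bp of that summit, and at Olfr543 and Olfr658 none did. With at most 1 mismatch it was 1 of 5 receptors, Olfr557, against 70.5% of 3572 protein-coding genes. The other 4 were Olfr596, Olfr598, Olfr603 and Olfr691, printed above, whose matches lay 190, 205, 264 and 73.5 kb from the nearest optimal summit. The Olfr596 and Olfr603 matches have the same 30 bases, 45 and 44 bp from a start in coding sequence that is repeat-masked. Uniqueness was measured only within 500 bp of the 5′ end of each gene record, and none of these 4 matches lies in that window. There, unique 32-base words made up 55.1% for Olfr596, 65.9% for Olfr603, 98.9% for Olfr598 and 100% for Olfr691. Uniqueness at the matches themselves was not measured.

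Across the whole array, 12 of 67 matches with at most 1 mismatch held an optimal summit, 17.9% (10.6 to 28.7%), against 30.7% in the genome, 7 of 19 in the low flank and 9 of 15 in the high flank. Such matches were about as dense as in the genome, 23.2 against 25.2 per Mb. Repeats moved with the share. Outside masked sequence 10 of 23 matches in the array held a summit, 43.5% (25.6 to 63.2%), against 38.9% in the genome. Inside it 2 of 44 did, 4.55% (1.26 to 15.1%), against 17.5%. Masked matches made up 65.7% of those in the array and 38.3% of those in the genome. The part of repeats in the difference was not tested.

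**Figure D4:**
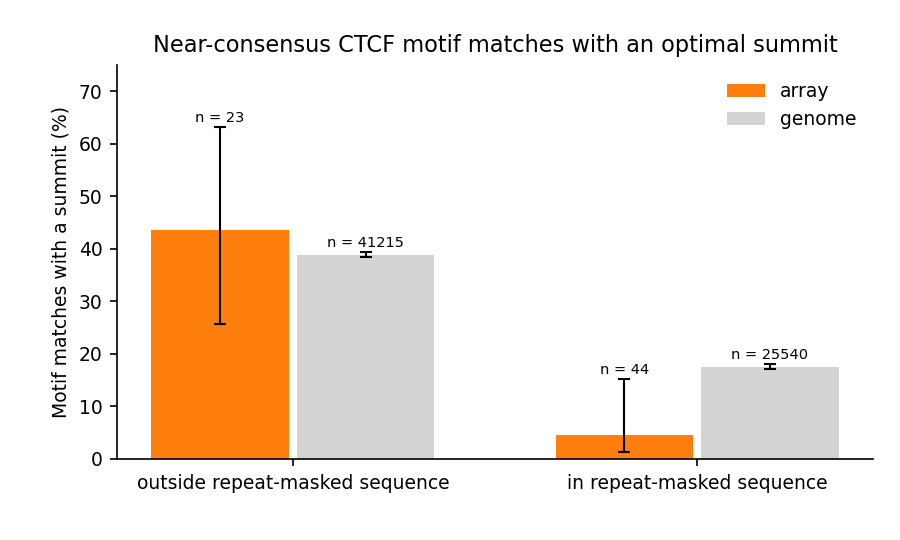
Share of core motif matches with at most 1 mismatch that held an optimal summit (y axis, percent), outside and inside repeat-masked sequence, in the array and in the genome, with Wilson 95% intervals. Outside repeats the array's 43.5% has an interval that includes the genome's 38.9%, and inside repeats its interval ends below the genome's 17.5%.

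Summits of higher signal were listed in both replicates more often than weak ones. Within 100 bp, 23 of the 32 summits had a peak among the strongest 50909 of both replicates, 71.9% (54.6 to 84.4%), against 76.7% of all optimal summits. In the full lists it was 28 of 32, 87.5%, against 93.5%. All 18 summits above the median signal were in both strongest lists and in the conservative list, while of the 14 below it 5 were in both and 8 in the conservative list. Signal comes from both replicates together and the list was chosen by their agreement, so this split is not independent support. The same split was not made over all optimal summits. Relative signal was higher in replicate 2 at 18 and in replicate 1 at 10 of the 28 summits with both values. At the site 2294 bp from Olfr571, with a signal of 82.4, the replicates were as far apart as 0.372 and 2.00.

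**Figure D5:**
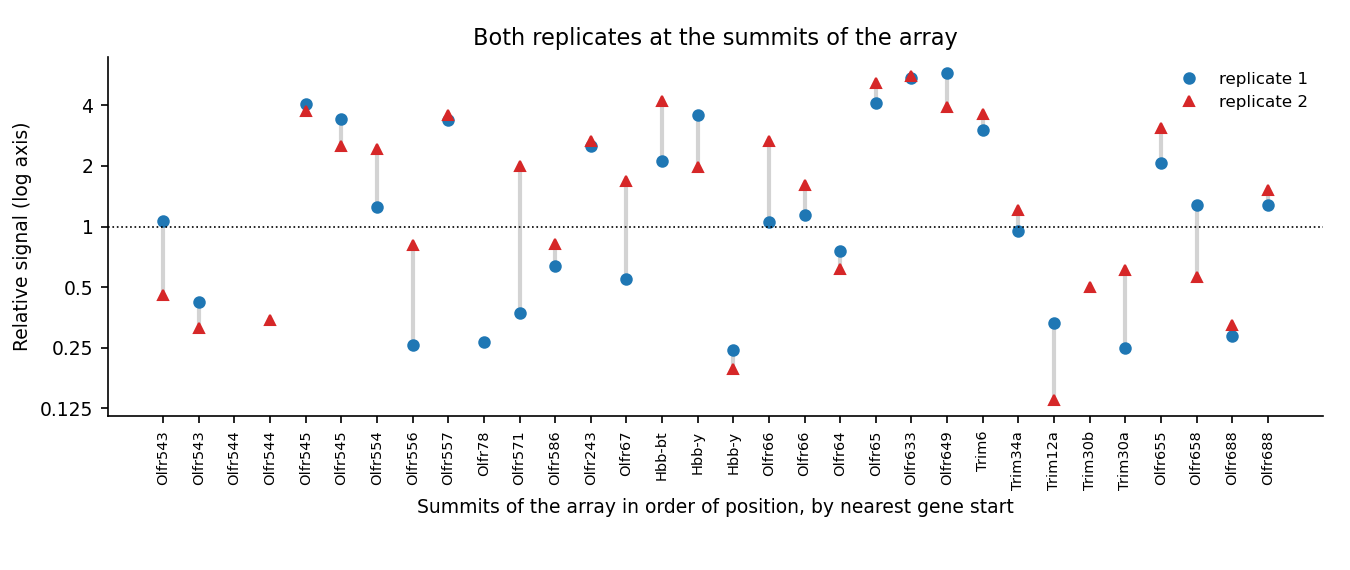
Relative signal (log axis) of each replicate at the 32 optimal summits of the array in order of position, named by the nearest gene start, with a grey line joining replicates that both had a peak. The dotted line at 1 is each replicate's median. The Olfr633, Olfr649, Olfr65 and Olfr557 sites are above 3 in both replicates, and the weaker summit in Olfr544 has no point.

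Arrays of receptors differed widely in CTCF density. Among the 15 runs of at least 20 protein-coding Olfr genes with less than 1 Mb between neighbours, densities ran from 0 to 60.6 optimal summits per Mb, and this array was the fifth densest. In 5 of the others no optimal summit was found. The other large run on chromosome 7 had 68 receptors, 8.11 summits per Mb and 0 start summits, and the largest run, on chromosome 2 with 227 receptors, had 4 summits in 5.07 Mb.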

How the data were processed

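Per the file headers and deposited text files, the authors deposited narrowPeak lists on mm10 for each replicate, for both pooled, and after IDR thresholds (optimal and conservative). The aligner and peak caller they used are not given in the sources used here. Peak signal, as deposited, has no stated scale. The deposited −log10 of the q value was capped and not used. The deposited summit offset, counted from the peak's start, placed each peak.

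Distances from summits to transcript starts (GENCODE vM21), motif matches, repeat masking and unique words of 32 bases were computed from the mm10 reference with Python 3.11.15, pandas 2.3.3, numpy 2.4.6 and numba 0.67.0, after the scripts were tested on simulated data. Intervals are Wilson 95% intervals by scipy 1.17.1 and cover counting error only. Replicate values use each replicate's strongest 50909 peaks, or the full lists where stated. No test was run, as there is 1 group.

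Members and lists were chosen with earlier results of these data known. GC classes, repeat classes, gaps and other arrays were added after the data were seen. Named genes are receptors with a start summit, those nearest each summit, the 10 strongest pooled starts, the end receptors, Trim genes with a start summit and the 5 summits nearest outside each end. The receptors of empty gaps, of unoccupied motifs and beside beta-globin were named after their values were seen. Control and signal tracks were not analysed here.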

Additional observations from a re-analysis of the deposited data

How the results depend on the processing

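No paired analysis was possible because both libraries belong to 1 group. The share of receptors with an optimal start summit was 1.55% within 500 bp, 12.4% within 5 kb and 0.775% with peaks above the median signal. The pooled share was 42.6% within 5 kb, 11.6% with 1 start per gene and 7.75% with the strongest 100000 peaks. Summit density was 6.22 per Mb above the median signal. The motif share was 64.3% in the conservative list, 83.3% above the median signal, 37.5% with at most 1 mismatch, 81.2% with at most 3, and 62.1 to 63.9% with 1 replicate left out. Support by both replicates was 85.7% in the conservative list, 100% above the median signal and 87.5% in the full lists. The largest gap was 593 kb in the conservative list, 792 kb above the median signal and 592.6 kb with either replicate left out, which means that the gap beyond Olfr658 was shortened and the gap beyond Olfr586 was then the longest. Leaving out 1 replicate gave start shares from 3.88 to 4.65%, pooled shares from 23.3 to 34.1% and densities from 10.03 to 12.4 per Mb. The lower values above the median signal and with fewer peaks follow from their having fewer peaks, and the cause of the other moves was not tested. Read depth is unknown, and a start without a listed peak does not show a lack of binding.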
